A study of Mus musculus with 28 samples.

Results

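The 9 genes described here, Akt1, Jag2, Hsp90aa1, Traf3, Gphn, Twist1, Hdac9, Pik3cg and Prkar2b, lie on mouse chromosome 12 in amplified DNA segments that are separate from the segment holding Mycn. These segments were found in AD thymic lymphoma 6 and, for Akt1, also in AD thymic lymphoma 5, and they covered only 14.1% of Hdac9. The genes were chosen from the copy ratios of the AD thymic lymphomas. Their levels in those tumours are therefore given as a description without a test. The genes are 9 of 20665 autosomal protein-coding genes in the RefSeq table of GRCm38.p6, and 9 of the 679 on chromosome 12.

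DNA copy number had been measured by exome sequencing, which samples the genome at captured targets, in 24 tumours of mice with germline p53 changes. AD mice had the genotype p53 AD/-, with an allele for p53 that forms dimers, and RP mice had p53 RP/-, with an allele for p53 that stays monomeric. Both genotypes carried a null p53 allele opposite the altered one, so every tumour compared here arose with 1 altered and no normal p53 allele, on a strain background that was 50% BALB/C and 50% C57BL6. Thymic lymphomas, T-cell tumours that arise in the thymus, numbered 7 AD and 7 RP, and sarcomas, connective tissue tumours, 5 AD and 5 RP, all collected at end point. No age is given in the labels, and replicate numbers follow the order of the records. The 4 ear samples, labelled as normal controls, were not analysed here. Each value is the log2 of a copy ratio, so 0 is the level of the comparison DNA, which is not named in the sources used here. A marker is a captured target or window that gave a value, and a gene takes the mean of the segments over its span weighted by overlap, so genes of one segment share one value. Read depth is unknown, and the number of tumours limits the precision.

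Chromosome 12 carried 7343 markers in AD thymic lymphomas and between 7348 and 7350 in RP thymic lymphomas, against 7353 in AD sarcomas and 7355 in RP sarcomas. These totals did not overlap between groups, so a difference in how groups were processed and the genotype or tumour type cannot be told apart. The label of thymic lymphoma was checked at the T-cell receptor beta genes of chromosome 6, between 41 and 42 Mb, where T cells delete DNA as they rearrange the gene. The mean log2 copy ratio there ran between -1.86 and -0.08 in AD thymic lymphomas and between -1.96 and -0.79 in RP thymic lymphomas, against -0.16 to 0.00 for AD sarcomas and -0.07 to -0.03 for RP sarcomas. AD thymic lymphoma 3, at -0.08, lay inside the range of the sarcomas, and AD thymic lymphomas 5 and 6, on which the results below turn, had -0.42 and -0.44.

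Gene amplification is the gain of many extra copies of a short stretch of DNA, either in tandem within a chromosome or on circular DNA outside it. Stretches that lie far apart on a chromosome can be joined in one amplified unit, in which case they are copied together while the DNA between them is not. Mycn encodes a MYC family transcription factor that drives growth and cell division, and its amplification is best known from human neuroblastoma. An exome copy ratio gives the average number of copies of each stretch, but not how the stretches are joined or where the copies lie.

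The 9 genes have different roles. Akt1 encodes a serine/threonine kinase that acts below PI3 kinase in growth and survival signalling, Pik3cg the catalytic subunit of the PI3 kinase of leukocytes that G protein coupled receptors activate, and Prkar2b a regulatory subunit that holds protein kinase A inactive. Jag2 encodes a ligand of Notch receptors, which direct T-cell development in the thymus. Traf3 encodes an adaptor of TNF receptor family members that restrains non-canonical NF-kappa-B signalling. Twist1 encodes a basic helix-loop-helix transcription factor of mesoderm and Hdac9 a class IIa histone deacetylase. Hsp90aa1 encodes the inducible form of the chaperone HSP90, and Gphn encodes gephyrin, a scaffold of inhibitory synapses that also makes the molybdenum cofactor.

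Promoter sequences are shown for 4 of the genes because whether a copy of a gene includes its start depends on where the amplified segment ends. All are from RefSeq on GRCm38.p6, run from 250 bases before to 50 bases after an annotated start, and are written on the gene's strand. Akt1 (chr12:112674835-112675134, minus strand) was inside an amplified segment in both AD thymic lymphomas 5 and 6. Twist1 (chr12:33957421-33957720, plus strand) and Prkar2b (chr12:32061228-32061527, minus strand) were inside one in AD thymic lymphoma 6 alone. Hdac9 (chr12:34917046-34917345, minus strand) was outside in both. Capitals mark CACGTG, the E-box that MYC proteins bind with MAX, which reads the same on both strands.
Akt1 promoter: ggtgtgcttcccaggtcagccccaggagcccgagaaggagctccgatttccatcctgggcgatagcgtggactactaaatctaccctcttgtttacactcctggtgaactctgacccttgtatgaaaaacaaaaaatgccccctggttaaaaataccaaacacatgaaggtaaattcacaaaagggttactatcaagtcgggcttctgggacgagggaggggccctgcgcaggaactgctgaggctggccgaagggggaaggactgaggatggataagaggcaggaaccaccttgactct
Twist1 promoter: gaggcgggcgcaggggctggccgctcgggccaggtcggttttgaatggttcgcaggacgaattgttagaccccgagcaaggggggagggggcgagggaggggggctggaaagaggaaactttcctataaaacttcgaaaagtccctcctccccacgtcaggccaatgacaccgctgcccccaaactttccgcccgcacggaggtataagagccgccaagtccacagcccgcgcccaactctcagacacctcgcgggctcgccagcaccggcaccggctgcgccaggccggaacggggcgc
Prkar2b promoter: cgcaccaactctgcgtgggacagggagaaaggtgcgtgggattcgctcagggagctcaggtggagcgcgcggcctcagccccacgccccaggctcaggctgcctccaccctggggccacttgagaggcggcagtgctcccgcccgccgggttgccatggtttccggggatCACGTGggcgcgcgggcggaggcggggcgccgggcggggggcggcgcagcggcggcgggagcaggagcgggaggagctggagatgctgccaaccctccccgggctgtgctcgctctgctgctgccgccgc
Hdac9 promoter: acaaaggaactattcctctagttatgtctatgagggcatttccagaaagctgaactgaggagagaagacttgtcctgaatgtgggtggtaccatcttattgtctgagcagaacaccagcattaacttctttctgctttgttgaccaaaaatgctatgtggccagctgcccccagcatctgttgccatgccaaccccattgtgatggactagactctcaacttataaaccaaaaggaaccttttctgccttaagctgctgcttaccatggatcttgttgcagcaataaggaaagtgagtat
The table held 12 promoters for 8 of the 9 genes, and the E-box letters occurred in 1 of the 12, the Prkar2b promoter above. The same letters occurred in 2243 of 31396 autosomal promoters of this length, or 7.14%. A match describes these letters only.

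Among the genes of protein kinase signalling, Akt1 shared the highest value of the 9 genes with Jag2 and was the only one of the 9 amplified in more than 1 tumour. Amplified here means a log2 copy ratio of at least 1. Akt1 (chr12:112653821-112674884, 99.7 Mb from the start of Mycn) had a log2 copy ratio of 4.80 in AD thymic lymphoma 6 and 1.17 in AD thymic lymphoma 5. The other 5 AD thymic lymphomas had -0.05, 0.23, -0.09, 0.04 and -0.25. The 7 RP thymic lymphomas had -0.12, -0.25, 0.16, 0.00, -0.28, 0.02 and -0.09. The AD sarcomas had -0.18, -0.20, -0.32, -0.20 and -0.03, against -0.05, -0.21, -0.07, -0.10 and -0.03 in RP sarcomas. Thus 2 tumours stood above all others, and the remaining tumours of the 4 groups overlapped. Pik3cg (chr12:32173397-32208677) and Prkar2b (chr12:31958450-32061648) shared one segment in AD thymic lymphoma 6, at 2.69. Both were at -0.03 in AD thymic lymphoma 5, and in the other AD thymic lymphomas they had -0.10, 0.23, -0.09, -0.06 and -0.31. In RP thymic lymphomas they had -0.33, -0.40, 0.16, 0.00, -0.28, 0.00 and -0.21. One tumour was therefore high for these 2 genes, at the lowest amplified level of that tumour.

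Of the ligand and the receptor adaptor, Jag2 (chr12:112907803-112929812) lay in the same amplified segment as Akt1 in AD thymic lymphoma 6, at 4.80, but outside the amplified segment of AD thymic lymphoma 5, where it was at 0.12. The other AD thymic lymphomas and all 7 RP thymic lymphomas had the same Jag2 values as for Akt1, so 1 tumour was high. Traf3 (chr12:111166321-111267155) had 3.95 in AD thymic lymphoma 6 and 0.19 in AD thymic lymphoma 5, with -0.05, 0.23, -0.09, -0.06 and -0.25 in the other AD thymic lymphomas. Traf3 ran between -0.32 and 0.16 in RP thymic lymphomas, with a median of -0.09, and 1 AD tumour stood apart.

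Twist1 and Hdac9 are neighbours with different values, because an amplified segment ended inside Hdac9. Twist1 (chr12:33957671-33959831) had 4.71 in AD thymic lymphoma 6, -0.03 in AD thymic lymphoma 5, and -0.10, 0.23, -0.09, -0.06 and -0.31 in the other AD thymic lymphomas. In RP thymic lymphomas it had -0.33, -0.40, 0.16, 0.00, -0.28, 0.00 and -0.21, and the single high tumour was again AD thymic lymphoma 6. Hdac9 (chr12:34047580-34917095) spans 870 kb and is read on the minus strand. The amplified segment covered 14.1% of it, 122 kb at the end of the gene, while its 2 annotated promoters lay 359 kb and 747 kb beyond the last amplified marker, in a segment at -0.34. The weighted value of Hdac9 in AD thymic lymphoma 6 was 0.41, which is below the cut of 1 and describes neither piece. Weighting linear ratios in place of log2 values put it at 2.19, and taking the segment with the largest overlap put it at -0.34, so the count of amplified genes in that tumour was 9 of 9 with the linear weighting and 8 of 9 otherwise.

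Hsp90aa1 (chr12:110691036-110696395) shared the Traf3 segment, and so its value, in AD thymic lymphomas 5 and 6. Gphn (chr12:78217325-78684772) had 4.32 in AD thymic lymphoma 6, -0.02 in AD thymic lymphoma 5, and -0.05, 0.23, -0.09, -0.06 and -0.31 in the other AD thymic lymphomas. In RP thymic lymphomas Gphn had -0.19, -0.34, 0.16, 0.00, -0.28, 0.00 and -0.09, so the groups overlapped apart from 1 AD tumour. Ordered by level in AD thymic lymphoma 6, the genes other than Hdac9 began with Akt1 and Jag2 at 4.80 and Twist1 at 4.71. Gphn at 4.32 and Hsp90aa1 and Traf3 at 3.95 followed, and Pik3cg and Prkar2b were last at 2.69. The first 3 of these differ by less than 0.2, and a single tumour gives no spread by which to order them.

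**Figure D1:**
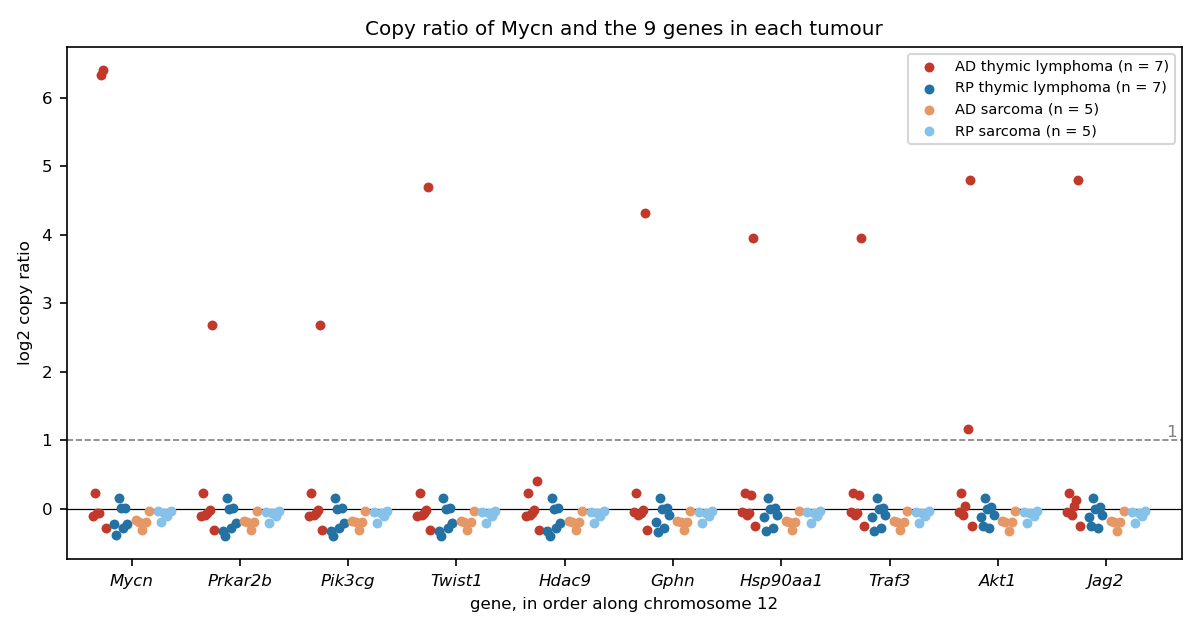
Log2 copy ratio (vertical axis) of Mycn and the 9 genes in the order of the chromosome (horizontal axis), 1 point for each of 24 tumours, coloured by group; the dashed line marks 1. AD thymic lymphoma 6 lies between 2.69 and 4.80 for 8 of the 9 genes, AD thymic lymphoma 5 reaches 1.17 for Akt1, and all other points of the 9 genes lie at or below 0.41.

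In counts, 8 of the 9 genes were amplified in AD thymic lymphoma 6, where 0.377% of all autosomal protein-coding genes and 9.72% of those on chromosome 12 were. AD thymic lymphoma 5 had 1 of 9 amplified, beside 0.595% of all autosomal genes and 3.39% on chromosome 12. At 0.3 or above, the cut for a gain, AD thymic lymphoma 6 had 9 of 9 genes beside 3.89% of all autosomal genes, and AD thymic lymphoma 5 had 1 of 9 beside 6.64%. Since amplification chose the genes, nothing is read from these counts. The values nearest to the cut of 1 were 1.17, for Akt1 in AD thymic lymphoma 5, on the inside and 0.41, for Hdac9 in AD thymic lymphoma 6, on the outside.

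The amplified DNA of AD thymic lymphoma 6 formed 8 blocks along chromosome 12, a block being a run of neighbouring amplified segments. The 8 blocks held 9 segments, of between 5 and 229 markers and between 11.7 and 920 kb, and together 4.81 Mb or 4.22% of the segmented length of the chromosome. They contained 53 protein-coding genes whole and 16 in part. Of the 10 amplified autosomal segments of the tumour, 9 were on chromosome 12. The segment at Mycn, chr12:12340688-12939609, had a log2 copy ratio of 6.40 over 12 markers and covered 61.2% of Mycn and part of Cyria, a regulator of actin. The true edge lies in the unmarked gap that follows, which was 280 kb long, so the rest of Mycn and its promoter fall between markers.

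The second block, chr12:31447098-32203991, was at 2.69 over 123 markers. It held Prkar2b whole and 86.7% of Pik3cg, along with Slc26a4, an anion transporter, Hbp1, a transcriptional repressor, Cog5, Bcap29, Dus4l, Gpr22 and Cbll1. The Pik3cg promoters fall between markers, 4.43 and 4.62 kb past the last amplified marker. Whether the amplified copies include them is not known. The next block, chr12:33249850-34169994, was at 4.71 over 30 markers and held Twist1, Ferd3l, another helix-loop-helix gene, Twistnb, Efcab10 and the end of Hdac9. Only 839 kb of unamplified DNA, at -0.47 over 45 markers, lay between these blocks, whose levels differ by 2.02 on the log2 scale. The Gphn block, chr12:78197173-78837457, was at 4.32 over 62 markers and also held Fam71d and most of Mpp5, a cell polarity gene.

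Short blocks followed at Eml5 (chr12:98798790-98810514, 3.95, 5 markers, 10.2% of the gene) and at Setd3 (chr12:108107231-108167272, 4.76, 14 markers, 82.3% of the gene), which encodes a histidine methyltransferase of actin. The Hsp90aa1 and Traf3 block, chr12:110666293-111345531, was at 3.95 over 151 markers and held 11 genes whole, among them Rcor1, a partner of the REST repressor, Mok and Amn, with 60.9% of Cdc42bpb, a kinase of the cytoskeleton. The last block changed level inside. Its first segment, chr12:111961509-112510743, was at 3.91 over 84 markers with Tdrd9, Aspg and Kif26a, and its second, chr12:112598010-113188163, was at 4.80 over 229 markers with Akt1, Jag2 and 21 other whole genes. Those include Siva1, a gene of apoptosis, Brf1, a subunit of the RNA polymerase III initiation factor, Mta1, of the NuRD complex, and Pacs2. This is the one step between amplified levels with no unamplified segment between them, and 87.3 kb without markers separates its sides.

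**Figure D2:**
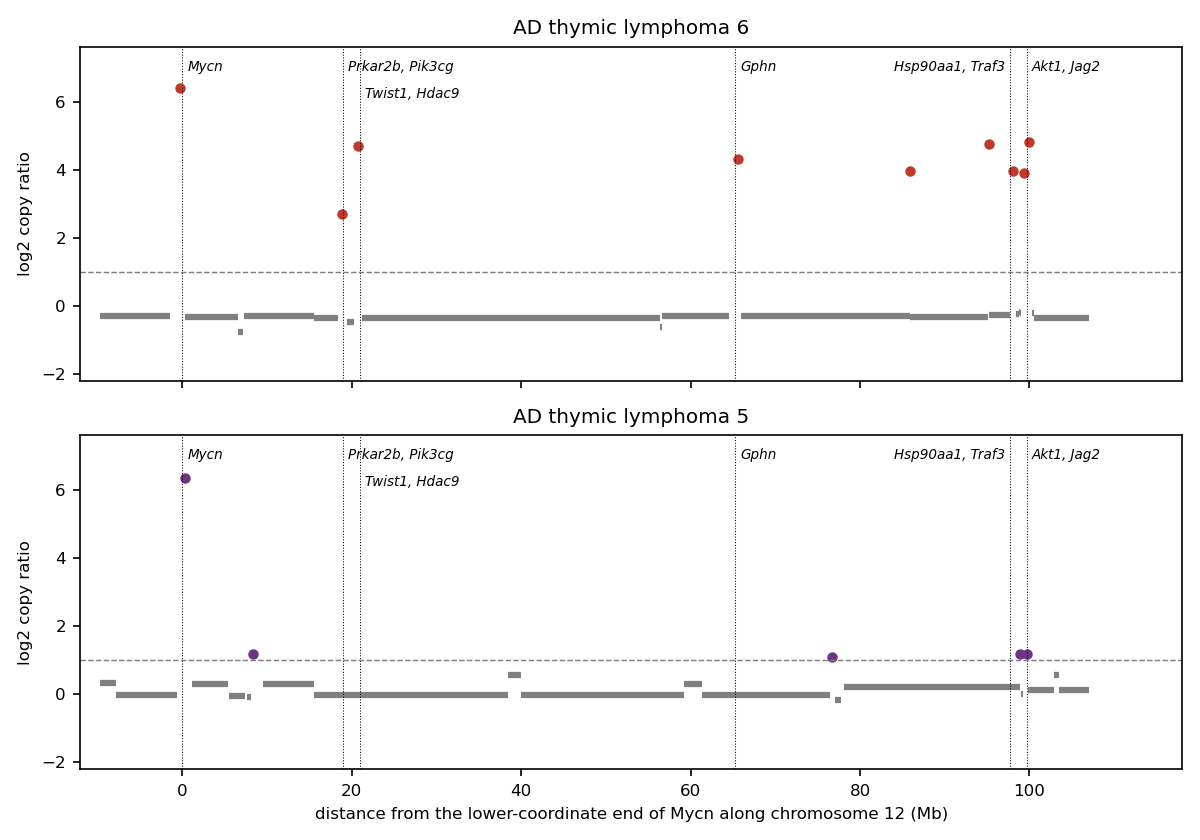
Log2 copy ratio (vertical axis) of every chromosome 12 segment against distance from the Mycn end with the lower coordinate, in Mb (horizontal axis), for AD thymic lymphoma 6 (top) and AD thymic lymphoma 5 (bottom); coloured points are amplified segments drawn at their centres, grey bars are the others at their length, the dashed line marks 1, and dotted lines mark the named genes. The top panel shows 9 amplified segments above a floor near the chromosome median of -0.31, and the bottom panel 1 high segment at 6.33 with 4 between 1.09 and 1.19.

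The DNA between the blocks of AD thymic lymphoma 6 was below the cut for a gain except in 1 short segment. Across 7 stretches of 531 kb to 43.3 Mb, 17 segments had log2 copy ratios of -0.76 to 0.40, and the 0.40 belonged to a segment of 6 markers, the only one of the 17 above 0.3. The 10 unamplified segments with at least 100 markers lay between -0.36 and -0.26, around the chromosome median of -0.31, which itself was below the autosomal median of the tumour, -0.15. The long stretch between the Twist1 and Gphn blocks, 43.3 Mb, held 2027 markers at -0.63 to -0.29. Between the Traf3 and Akt1 blocks, 130 markers over 531 kb had -0.69 to -0.17. Beyond the last block the level was -0.20 over 48 markers then -1.81 over 4 markers, and -0.36 over the 538 markers that reach the end of the segmented chromosome.

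Amplified segments far apart fell on shared levels. In 6 of the 35 pairs of amplified segments that are not neighbours, the levels were within 0.2 of each other, with gaps of 0.0002 to 0.0948. These pairs form 2 sets of 3. The Twist1 segment at 4.71, the Setd3 segment at 4.76 and the Akt1 and Jag2 segment at 4.80 make the higher set, whose outer members start 79.3 Mb apart. The Eml5 segment at 3.95, the Hsp90aa1 and Traf3 segment at 3.95 and the Tdrd9 segment at 3.91 make the lower set. Gphn at 4.32, Pik3cg and Prkar2b at 2.69 and Mycn at 6.40 each stood alone. As linear ratios, Mycn was at 84.7, the higher set at 26.1 to 27.9, Gphn at 19.9, the lower set at 15.0 to 15.5, and Pik3cg and Prkar2b at 6.44. After taking off the chromosome median, the excess at Mycn was 3.10 to 3.32 times that of the higher set, 4.39 times that of Gphn, 5.72 to 5.90 times that of the lower set and 14.9 times that of Pik3cg and Prkar2b. Segments of one tumour are not replicates, and the pairs carry no test.

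**Figure D3:**
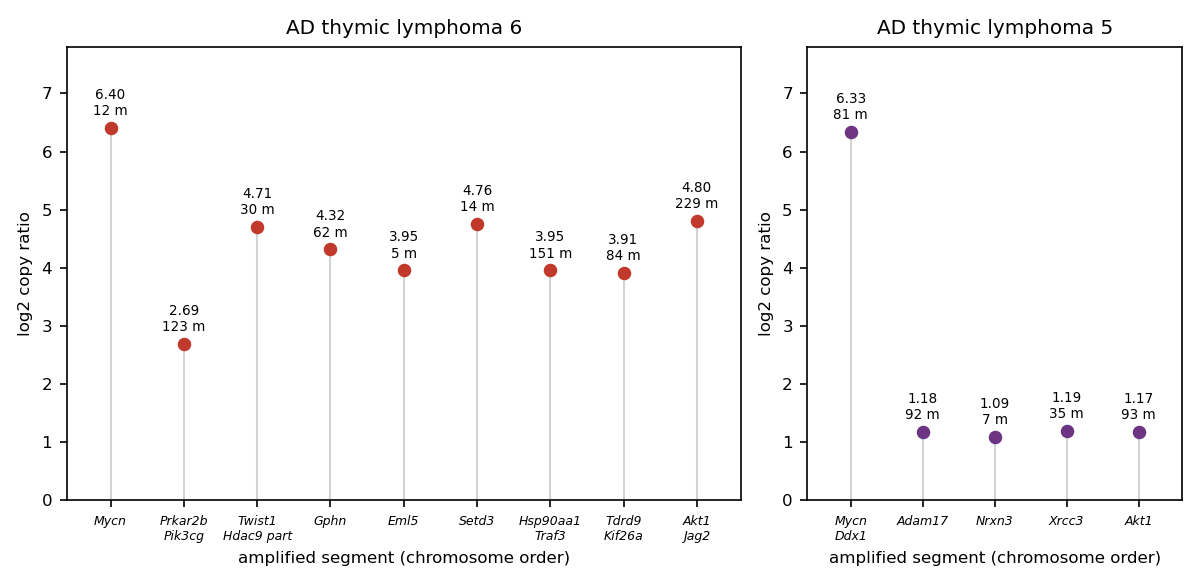
Log2 copy ratio (vertical axis) of each amplified chromosome 12 segment in chromosome order (horizontal axis, named by genes it holds) in AD thymic lymphoma 6 (left) and AD thymic lymphoma 5 (right), with the level and the number of markers (m) written above each point. Segments at 4.71 to 4.80 and at 3.91 to 3.95 make the 2 sets of shared levels on the left, and 4 segments at 1.09 to 1.19 share a level on the right.

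AD thymic lymphoma 5 had another layout around a Mycn segment of similar height. Its Mycn segment, chr12:12937005-13633154, was at 6.33 over 81 markers, covered 84.1% of Mycn together with its promoter, and extended over Ddx1, an RNA helicase gene, and Nbas, the side away from that of AD thymic lymphoma 6. Outside it, 4 amplified segments stood at 1.09 to 1.19, and all 6 pairs among them were within 0.2. They lay at Adam17, Ywhaq and Itgb1bp1 (chr12:21112043-21417503, 1.18, 92 markers), inside Nrxn3 (chr12:89503017-89813399, 1.09, 7 markers), at Xrcc3 and Zfyve21 (chr12:111804443-111872285, 1.19, 35 markers) and at Akt1 (chr12:112495003-112768425, 1.17, 93 markers). Adam17 encodes the protease that sheds TNF and cuts Notch. The excess at Mycn over the chromosome median of -0.02 was 61.8 to 70.0 times that of these 4 segments, against 3.10 to 14.9 times in AD thymic lymphoma 6. The amplified segments of AD thymic lymphoma 5 on chromosome 12 made up 1.65 Mb, or 1.46% of its segmented length, with 15 genes whole and 9 in part, and 11 of its 16 amplified autosomal segments were on other chromosomes.

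Below the cut of 1, chromosome 12 of AD thymic lymphoma 5 showed further steps. Another 4 segments with 846 markers over 14.4 Mb lay between 0.29 and 0.34, and 2 segments with 288 markers at 0.55 and 0.56. In linear ratios the 3 steps were 1.22 to 1.26, 1.46 to 1.47 and 2.12 to 2.28. A segment of 4 markers was at 0.83, and the other 11 segments, with 5897 markers, lay between -0.17 and 0.19. Of the 9 genes, Akt1 alone lay in one of these 3 steps, which were counted from 0.25 upward. Hsp90aa1 and Traf3, at 0.19, and Jag2, at 0.12, were on the distal part of the chromosome where 1.14 and 1.09 were the linear ratios, while the other 5 lay at -0.03 to -0.02.

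Measured between markers, the region amplified in both tumours was narrow. At Mycn, the segments overlapped over 2.61 kb, chr12:12937005-12939609, inside Mycn. That length is a minimum. No marker lay in the 564 kb before the AD thymic lymphoma 5 segment or in the 280 kb after the AD thymic lymphoma 6 segment. The true overlap may therefore be longer. At Akt1 they overlapped over 170 kb, chr12:112598010-112768425, which held Akt1, Siva1, Adssl1, Zbtb42, Cep170b and Gm46382 whole and Inf2 and Pld4 in part. The other overlap, chr12:112495003-112510743, was 15.7 kb long and held parts of Tmem179 and A530016L24Rik. Of the 679 chromosome 12 genes, 1.62% were at or above 1 in both tumours. Jag2 was beyond the end of the shared region, with the last amplified marker of AD thymic lymphoma 5 at 112768425 and Jag2 starting at 112907803. The proximal edge of the 170 kb overlap is the start of the Akt1 step in AD thymic lymphoma 6. Its distal edge is the end of the segment in AD thymic lymphoma 5. AD thymic lymphoma 6 was amplified on both sides of that step, at 3.91 and 4.80, with 87.3 kb without markers between them. By the cut of 1, the markers amplified in both tumours here therefore start at chr12:112495003, the edge in AD thymic lymphoma 5.

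**Figure D4:**
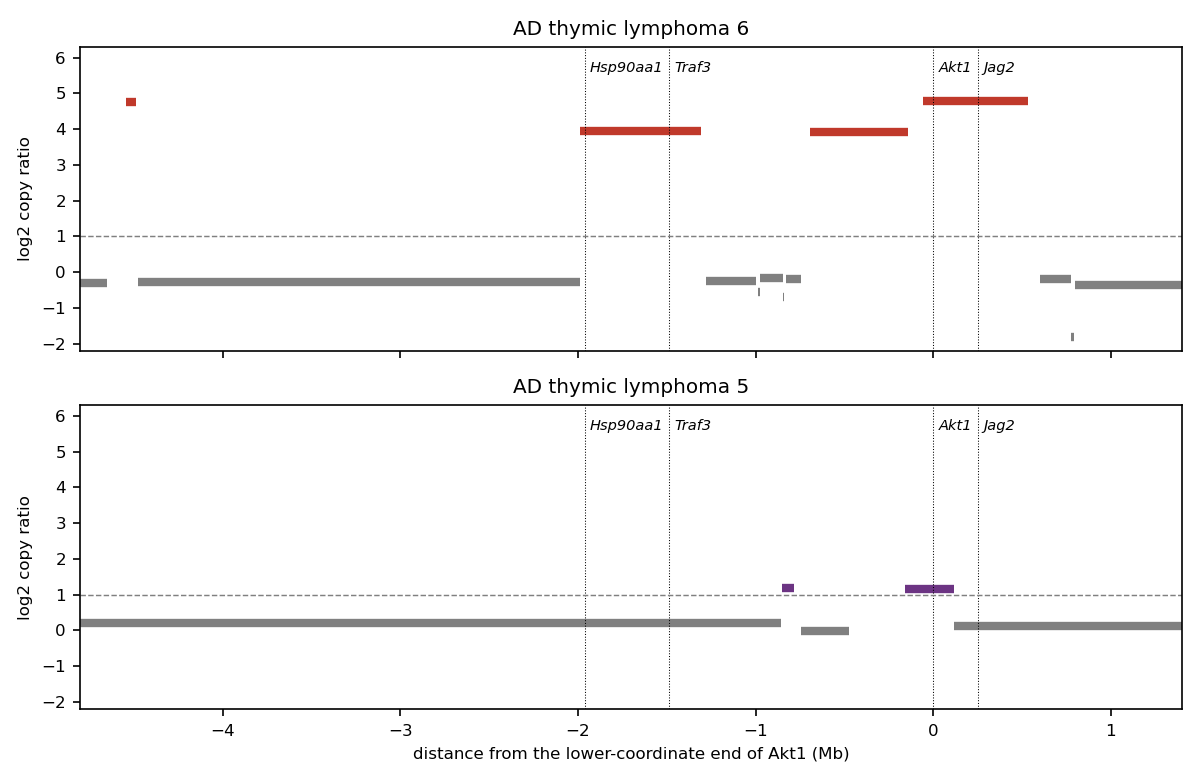
Log2 copy ratio (vertical axis) of chromosome 12 segments against distance from the Akt1 end with the lower coordinate, in Mb (horizontal axis), in AD thymic lymphoma 6 (top) and AD thymic lymphoma 5 (bottom); coloured bars are amplified segments, grey bars are the others, the dashed line marks 1, and dotted lines mark 4 of the genes. The amplified bars overlap around Akt1 in both panels, at 4.80 and 1.17, while Hsp90aa1, Traf3 and Jag2 lie in amplified bars in the top panel alone.

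Some microRNAs lie in the amplified distal segments and are shown because they share the copy ratio of a host gene or of its neighbour. Capitals mark the seed, bases 2 to 8, and sequences are from RefSeq on GRCm38.p6. The mmu-miR-6939 hairpin lies in Akt1 and was amplified in both tumours, at 4.80 in AD thymic lymphoma 6 and 1.17 in AD thymic lymphoma 5. The mmu-miR-6941 hairpin lies in Jag2 and the mmu-miR-203 hairpin near Aspg, and these were amplified in AD thymic lymphoma 6 alone, at 4.80 and 3.91.
mmu-miR-6939-5p: cAGGCAGCugguugguggaag
mmu-miR-6939-3p: cCUCACUUgacccgcugcag
mmu-miR-6941-5p: cUGGGGGAcugacggguagcu
mmu-miR-6941-3p: cUAACUCGgcugcucccaaag
mmu-miR-203-3p: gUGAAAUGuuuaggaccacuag
Of 92 hairpins on chromosome 12, 7 lay in amplified segments of AD thymic lymphoma 6 and 2 in those of AD thymic lymphoma 5. The 14 mature sequences of the 7 hairpins had 13 different seeds. Nothing on their expression can be read from DNA copy number.

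Other genes of the chromosome were read from a list of 73 names grouped by role, of which 72 were matched. Counts take genes covered whole or in part. Outside the 33 picked as neighbours of the 9 genes, amplified segments of AD thymic lymphoma 6 touched 2 of 39. These were Cyria at 6.40 and Cdc42bpb at 3.78, each in part. Those of AD thymic lymphoma 5 touched 3 of 39, Ddx1 and Nbas at 6.33 and Xrcc3 at 1.19. None of the 39 was in an amplified segment in both. The Myc partners and growth genes (Max, Fos, Id2, Odc1 and Rrm2) were in one in 0 of 5 cases, the T-cell and blood genes in 0 of 4 and the transcription factors in 0 of 13, in each of the 2 tumours. Among the neighbours, amplified segments touched 24 of 33 in AD thymic lymphoma 6 and 2 of 33, Inf2 and Siva1, in AD thymic lymphoma 5. The 24 include Dync1h1, of which 0.995% was covered and whose value was -0.22. Several genes lay just outside in AD thymic lymphoma 6. Bcl11b, a transcription factor of T-cell identity, was at -0.31, 103 kb from the Setd3 segment, Ppp2r5c, a regulatory subunit of PP2A, at -0.26 and 83.2 kb, and Eif2s1, the alpha subunit of translation factor eIF2, at -0.29 and 24.6 kb. No marker lay in the 104 kb before the Setd3 segment, so its true edge may lie closer to Bcl11b. Nampt, an enzyme of NAD synthesis, was at -0.47 between the Pik3cg and Twist1 blocks.

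In the other 22 tumours the 9 genes followed the level of the whole chromosome. Chromosome 12 had between 1 and 23 segments there and 0 amplified ones, and the 9 genes ran between -0.40 and 0.23. The largest distance of a gene from the chromosome median of its tumour was 0.13, against 5.11 in AD thymic lymphoma 6 and 1.19 in AD thymic lymphoma 5. In 11 of the 22 tumours all 9 genes had one level. Amplified in at least 1 tumour were 0 of the 9 genes and 0.131% of all autosomal genes in the other 5 AD thymic lymphomas, 0 of 9 and 0.431% in the 7 RP thymic lymphomas, 0 of 9 and 0.223% in the 5 AD sarcomas, and 0 of 9 and 0.382% in the 5 RP sarcomas. Losses, at -0.3 or below, took in all 9 genes in AD sarcoma 3, at -0.32 to -0.31, 7 genes in RP thymic lymphoma 2, 5 in AD thymic lymphoma 7 and 4 in RP thymic lymphoma 1. These calls were made on values that were not centred. The autosomal medians of these tumours were themselves below 0, at -0.09, -0.11, -0.25 and -0.10 in the same order. The calls are therefore not losses relative to the rest of each tumour's genome. The mean share of autosomal genes lost per tumour was 13.2% in AD thymic lymphomas, with numbers 5 and 6 included, and 22.9% in RP thymic lymphomas. It was 0.853% in AD sarcomas and 0.575% in RP sarcomas. These are means over whole groups and not the shares of the single tumours just named. Gained segments, at 0.3 or above, numbered 14 in 11 of the 22 tumours, had 2 to 10 markers each, and touched none of the 9 genes. Of these 14, 7 lay within the same interval, chr12:28510395-28516646 in Dcdc2c, 1 in each of 7 tumours, at 0.42 to 0.83. This interval was at 0.40 in AD thymic lymphoma 6.

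Set over groups, most of the difference between AD and RP thymic lymphomas came with AD thymic lymphoma 6 for the genes other than Hdac9. For Akt1, AD thymic lymphoma 5 contributed as well. The Hdac9 difference was 0.16 with all tumours and 0.09 without AD thymic lymphoma 6. Akt1 averaged 0.84 ± 1.81 in AD thymic lymphomas and -0.08 ± 0.16 in RP thymic lymphomas (SD, n = 7 each), a difference of 0.92. Leaving out AD thymic lymphoma 6 made it 0.25, leaving out AD thymic lymphoma 5 made it 0.86, and leaving out both made it 0.06. Jag2 averaged 0.69 ± 1.82 in AD and -0.08 ± 0.16 in RP thymic lymphomas, Twist1 0.62 ± 1.81 in AD and -0.15 ± 0.21 in RP, and Gphn 0.57 ± 1.66 in AD and -0.11 ± 0.18 in RP (SD, n = 7 each). Hsp90aa1 and Traf3 averaged 0.56 ± 1.50 in AD and -0.09 ± 0.17 in RP, Pik3cg and Prkar2b 0.33 ± 1.05 in AD and -0.15 ± 0.21 in RP, and Hdac9 0.01 ± 0.24 in AD and -0.15 ± 0.21 in RP. AD thymic lymphoma 6 was the highest AD tumour for all 9 genes. The differences ran between 0.16 and 0.92, with a median of 0.65 over the 9 genes, and between 0.05 and 0.09 without both tumours. For the 8 genes other than Akt1, the difference was 0.06 to 0.09 without AD thymic lymphoma 6 and 0.16 to 0.88 without AD thymic lymphoma 5, where it was larger than with all tumours. No test is given, because this contrast chose the genes.

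The remaining comparisons did not use the AD thymic lymphomas, in which the genes were amplified. The comparison of RP thymic lymphomas with RP sarcomas does use the other side of the contrast above. It is therefore not wholly separate from the choice of genes. In sarcomas, AD minus RP differed by -0.095 to -0.092 for the 9 genes, with 5 of 5 AD and 5 of 5 RP sarcomas below 0. Akt1 averaged -0.19 ± 0.10 in AD sarcomas and -0.09 ± 0.07 in RP sarcomas (SD, n = 5 each), and the values overlapped. The exact two-sided permutation p was 0.167 for each gene, with an adjusted p of 0.557 over all genes, where the smallest p that the 252 splits allow is 0.00794. Thus 0 of 9 genes passed, as did 0 of 20665 genes, or 0%. Unadjusted, 5.07% of all genes were at or below 0.05, and limma also called 0 genes. The median difference over all genes was 0.01, and that of the 9 genes was -0.095.

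RP thymic lymphomas minus RP sarcomas gave differences of -0.06 to 0.01 for the 9 genes. Akt1 averaged -0.08 ± 0.16 in RP thymic lymphomas (n = 7) and -0.09 ± 0.07 in RP sarcomas (n = 5), and Twist1, Hdac9, Pik3cg and Prkar2b each averaged -0.15 ± 0.21 in RP thymic lymphomas and -0.09 ± 0.07 in RP sarcomas. Values were below 0 in 4 of 7 RP thymic lymphomas and 5 of 5 RP sarcomas. The exact two-sided permutation p ran between 0.549 and 0.999 and the adjusted p between 0.776 and 0.999, so 0 of 9 genes passed, while 36.1% of all genes did. With limma, 0 of 9 genes and 45.7% of all genes passed. The median difference was -0.02 over the 9 genes and -0.04 over all genes. Over the 9 genes it was 0.02 without RP thymic lymphoma 2 and -0.06 without RP thymic lymphoma 3, so its sign depended on single tumours. Genes of one segment share values, so the 9 genes are not 9 independent tests.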

How the data were processed

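Genomic DNA of 24 tumours was sequenced by exome capture with 150 nt reads. Per the submitters' processing notes, the build was GRCm38, and the tools listed, without roles, were GATK 4.1.0.0, BWA 0.7.17 and Trim Galore 0.6.5. Each deposited file lists copy number segments of 1 tumour and, per the file headers, gives a chromosome, start, end, number of markers and segment mean. The deposited segment mean is read as a log2 copy ratio. Not given in the sources used here are the base of the logarithm, the DNA compared with, how values were centred and segmented, and whether tumour purity was corrected for; normal cells in a tumour lower an amplified level. Segments end at markers, so true edges lie in the gaps between them.

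The 9 genes, the list of other chromosome 12 genes and the tests were chosen with earlier results of these data known. Gene spans, promoters and microRNAs came from RefSeq tables on GRCm38.p6. A gene took the overlap-weighted mean of its segments, or the nearest segment where none overlapped. Amplified meant at least 1, gained at least 0.3, lost at most -0.3, and a shared level within 0.2. Groups were compared by exact permutation over all 20665 autosomal protein-coding genes with Benjamini-Hochberg adjustment, after tests on simulated data, in Python 3.11.15 with numpy 2.4.6, pandas 2.3.3 and scipy 1.17.1. Plots were drawn with matplotlib 3.10.9. The limma 3.58.1 fit, other cuts, centring on the autosomal median, a minimum of 5 markers, other ways to weight a gene and leaving out each tumour were alternatives. Named were the 9 genes, Mycn and the listed genes that lie in or nearest to an amplified segment; other genes inside the blocks were named after their values were seen. Nothing in the labels pairs tumours between groups. Each tumour is 1 replicate. A permutation p is the share of all splits of the tumours whose mean difference, in either direction, is at least as large as that observed.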

Additional observations from a re-analysis of the deposited data

Results flagged for a closer look

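One AD thymic lymphoma, number 6, stood far from the other 6 tumours of its group for 8 of the 9 genes, at 4.80 for Akt1 and Jag2, 4.71 for Twist1, 4.32 for Gphn, 3.95 for Hsp90aa1 and Traf3, and 2.69 for Pik3cg and Prkar2b. The gap to the nearest other tumour exceeded Dixon's 95% critical value in each case. Of 40 combinations of gene and group screened (9 genes and Mycn in 4 groups), these 8 were flagged. The genes were chosen for their level in this tumour, and that choice by itself leads to such flags. The genes also share segments, so the 8 results are neither independent nor a test, and no chance rate applies to them.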

How the results depend on the processing

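AD thymic lymphoma 6 had 8 amplified blocks under all 4 alternatives tried and 8 or 9 amplified genes of the 9 under 6, and the other 22 tumours had 0 under all 6. The minimum of 5 markers could not remove a block. Amplified segments had at least 5 markers in AD thymic lymphoma 6 and at least 7 in AD thymic lymphoma 5. Results of AD thymic lymphoma 5 moved with the cut. It had 5 blocks at a cut of 1, 8 at a cut of 0.5 and 1 at a cut of 2, where its amplified genes also went to 0. At a tolerance of 0.5, 12 pairs of segments shared a level in AD thymic lymphoma 6, in place of 6 at 0.2. Leaving out each tumour in turn gave 0 to 0 passing genes in both tests, and a median difference between AD and RP thymic lymphomas over the 9 genes of 0.09 to 0.79, lowest without AD thymic lymphoma 6. Centring each tumour on its autosomal median made the median difference between RP thymic lymphomas and RP sarcomas 0.08, in place of -0.02, and no gene passed. No paired analysis was possible because the labels give the 4 tumour groups no replicate numbers and no shared animal, litter or batch; 4 of the animals also gave an ear sample, not analysed here. Short segments, such as that in Eml5 with 5 markers, rest on the fewest measurements, and read depth is unknown.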
